A study of Mus musculus with 74 samples.

Results

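Keratins are the intermediate filament proteins of epithelial cells, and the genes described here are the keratin genes of mouse fibroblasts under reprogramming. They were chosen by name, as every gene in the expression tables whose symbol is Krt followed by digits alone, and this gave 27 genes of the 21811 in either table. Of these, 25 stood in the table of the experiment in neural stem cell (NSC) medium, 21 in the table of a parallel experiment, and 19 in both. All 25 and all 21 passed the filter on low values, which kept genes that reached 10 in 2 or more libraries. The 27 genes were 16 of type I and 11 of type II. By the tissue in which they are best known, 7 are keratins of simple epithelia, 5 of the basal or activated layer of stratified epithelia, 7 of suprabasal or mucosal layers, 4 of the hair root sheath and 1 of hair and nail, and 3 were placed in no such class. Krt80, a type II keratin of differentiating epithelia, was counted with the simple epithelial class throughout. The name rule leaves out keratins whose symbol ends in a letter, such as Krt6a and Krt6b.

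RNA was sequenced from mouse embryonic fibroblasts (MEFs) that carry a Sox2-GFP reporter, before and during conversion with lentiviral factors that are switched on by doxycycline (Dox) through M2rtTA. In NSC medium, which holds N2, B27, bFGF and EGF, 3 cocktails shared Brn4, Klf4 and c-Myc: BKM_Sox2 added Sox2 to them, BKM_Sox17 wild-type Sox17, and BKM_FNV eSox17FNV, an engineered Sox17. K_FNV received Klf4 and eSox17FNV alone. Dox was given for 18 days, and all 4 cocktails were sampled during it (days 4, 8, 12 and 18) and afterwards (days 24 and 30). The parallel experiment delivered eSox17FNV, Klf4 and c-Myc to MEFs, which were sampled on days 4 and 8 in N2B27 medium while on Dox. They were then split into NSC medium or LIF/2i, a pluripotency medium with LIF, the GSK3 inhibitor CHIR99021 and the MEK inhibitor PD0325901, and sampled on Dox (days 12 and 16) and off it (days 20 and 24). The comparison groups were MEFs in MEF medium without factors, primary neural stem cells (NSCs), also labelled Sox2-GFP, and induced neural stem cell lines. The line iNSC_KF was made with Klf4 and eSox17FNV, and iNSC_BKMF with Brn4, Klf4, c-Myc and eSox17FNV. The factors, the infection, Dox and the change of medium therefore cannot be told apart in a comparison with MEFs. Every culture is a bulk sample that no label describes as sorted, so a lower value from fewer cells of a type cannot be told apart from one with less RNA per cell.

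The deposited values are normalized tag counts, and every column of a table has the same highest value, so they rank and scale genes within a library but give no read depth. Groups had 2 libraries each, except that BKM_Sox17 and BKM_Sox2 had 1 at day 30. BKM_Sox2 day 24 replicate 1 correlated with its replicate at 0.0578, where all other pairs of that table lay between 0.949 and 0.961, and it was left out of the fits. No label states that replicates came from different cultures, and the p-values therefore reflect the spread among these libraries. The cell type labels were checked on marker lists. The summed value of 6 fibroblast genes was 150263 to 150911 in MEFs and 374 to 519 in NSCs, with Postn listed at 0 there. That of 6 neural stem cell genes was 1747 to 1872 in MEFs, 115482 to 115535 in NSCs, 112916 to 113888 in iNSC_BKMF and 72193 to 78415 in iNSC_KF.

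A keratin filament is an obligate heteropolymer: an acidic type I keratin pairs with a basic type II keratin, and a partner left alone is degraded. Krt8 and Krt18 are the pair of simple epithelia and the first keratins of the embryo, with Krt7, Krt19 and Krt20 added in particular ducts and in gut and bladder. Krt5 and Krt14 are the pair of the basal epidermal layer, Krt1 and Krt10 replace them as keratinocytes differentiate, and Krt6, Krt16 and Krt17 are switched on in wounded or overgrowing epidermis. Fibroblasts and neural stem cells carry vimentin and, in the neural case, nestin filaments in place of keratin ones.

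The keratin genes lie in 2 clusters (GRCm38, mm10). The annotation (GENCODE M21) holds 25 genes with such names on chromosome 11 between 99232761 and 100269871, 15 of them in the tables, and 25 on chromosome 15 between 101347444 and 102032027, 12 of them in the tables. Krt18 is a type I gene that sits in the type II cluster beside Krt8, with its start facing that of Krt8 on the opposite strand. RefSeq promoter windows (GRCm38.p6) were found for 20 of the 27 genes. The 250 bases before the RefSeq start are shown for Krt8 and Krt18, a protein pair whose levels came apart at day 4, for Krt5, the basal keratin that was not called at day 4, and for Krt20 and Krt90, which were higher in K_FNV than in BKM_FNV. Capitals mark CACCC or its reverse complement GGGTG, the core bound by Klf factors, and TATAAA or its reverse complement, the TATA box. Each is written 5′ to 3′ on the strand of its gene. For Krt8 the RefSeq window holds a TATAAA that lies across the RefSeq start and so is not printed whole, and the nearest GENCODE start of Krt8 lies 140 bases upstream of the RefSeq one, within the printed bases.

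Krt8, chr15:102004343-102004592, minus strand: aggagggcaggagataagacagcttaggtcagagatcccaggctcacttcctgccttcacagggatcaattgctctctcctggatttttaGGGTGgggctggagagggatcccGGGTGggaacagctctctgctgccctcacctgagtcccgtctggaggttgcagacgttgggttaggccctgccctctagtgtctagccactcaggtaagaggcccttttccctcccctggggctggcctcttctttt

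Krt18, chr15:102027966-102028215, plus strand: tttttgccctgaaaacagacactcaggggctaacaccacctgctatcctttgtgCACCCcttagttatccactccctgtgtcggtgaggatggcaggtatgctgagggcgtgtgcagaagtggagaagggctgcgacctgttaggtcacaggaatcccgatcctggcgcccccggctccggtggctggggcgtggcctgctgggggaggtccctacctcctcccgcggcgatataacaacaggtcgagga

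Krt5, chr15:101712906-101713155, minus strand: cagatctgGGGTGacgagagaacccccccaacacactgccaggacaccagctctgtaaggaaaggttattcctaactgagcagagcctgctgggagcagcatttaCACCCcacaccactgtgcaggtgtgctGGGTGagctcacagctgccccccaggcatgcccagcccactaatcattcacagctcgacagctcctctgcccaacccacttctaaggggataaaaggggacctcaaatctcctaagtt

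Krt20, chr11:99438154-99438403, minus strand: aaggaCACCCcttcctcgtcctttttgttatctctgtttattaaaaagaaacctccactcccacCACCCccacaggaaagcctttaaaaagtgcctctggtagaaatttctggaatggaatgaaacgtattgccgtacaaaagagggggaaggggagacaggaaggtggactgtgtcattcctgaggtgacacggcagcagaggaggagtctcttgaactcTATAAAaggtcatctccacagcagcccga

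Krt90, chr15:101562951-101563200, minus strand: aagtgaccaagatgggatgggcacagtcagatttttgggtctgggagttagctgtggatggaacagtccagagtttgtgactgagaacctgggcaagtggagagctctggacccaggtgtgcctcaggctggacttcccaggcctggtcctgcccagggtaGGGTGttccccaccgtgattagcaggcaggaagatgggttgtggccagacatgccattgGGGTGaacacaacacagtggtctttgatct

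Over the whole RefSeq promoter windows, which run past the start, CACCC on either strand stood in 95.2% of the 21 keratin windows and in 57.5% of all 32851 windows. TATAAA stood in 47.6% of the keratin windows and in 13.6% of all. The Sox core ACAAT stood in 14.3% against 31% of all, the AP-1 motif TGANTCA in 9.52% against 7.81%, the E-box CACGTG in 9.52% against 7.15%, and the octamer ATGCAAAT in 0% against 1.74%. All were searched on both strands, no motif of the 6 contains another, and these shares describe letters in the windows, not binding.

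Some keratin transcripts share sequence, so reads could be split between copies. The share of 50-base windows of a transcript that also occur in another gene was 37.6% for Krt16, 26.9% for Krt8 (with the pseudogene Krt8-ps), 13.9% for Krt14, 11.1% for Krt27 and 8.52% for Krt5, and the values of these 5 genes are uncertain to that extent. For Krt17 it was 3.99%, and for every other keratin it was at most 2.41%.

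**Figure D1:**
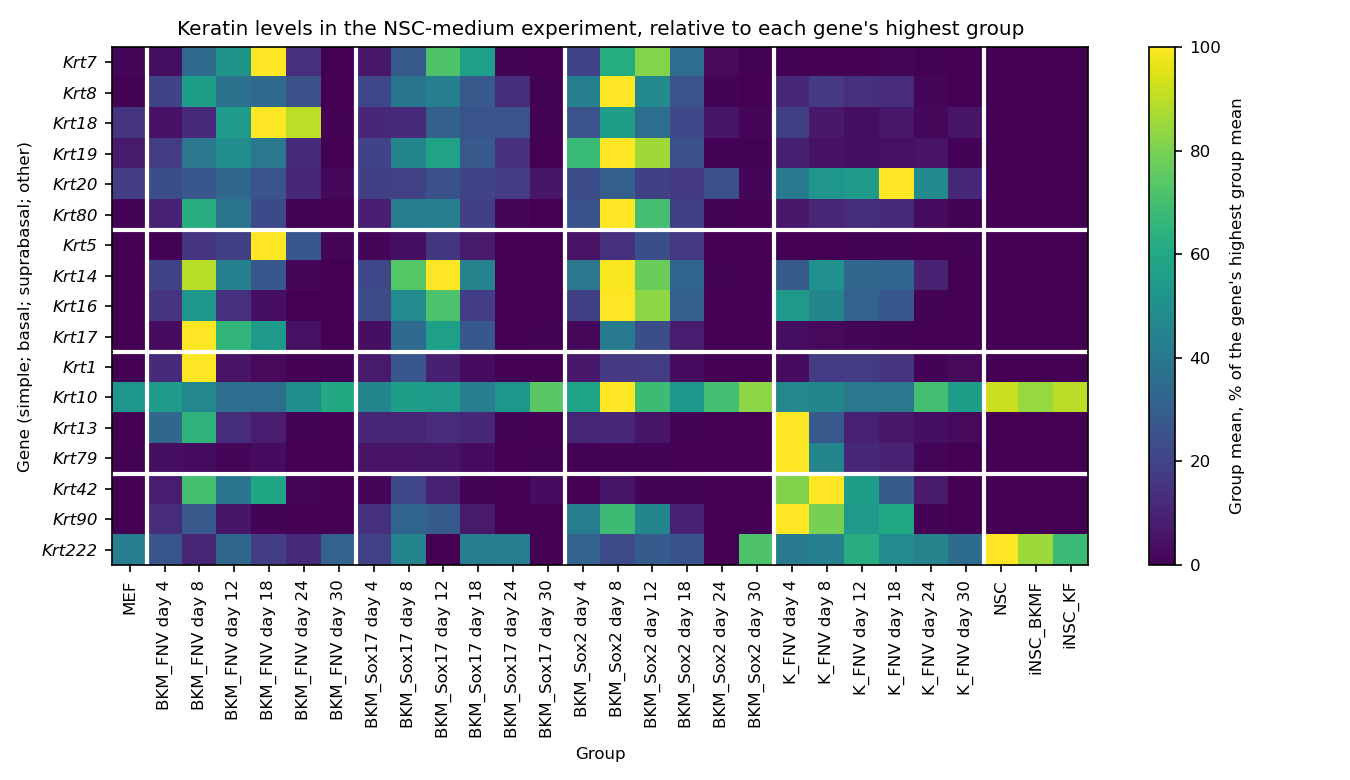
Group means of the 17 keratins described with values, as a percent of the highest group mean of each gene in the NSC-medium table (colour), one row per gene and one column per group, without BKM_Sox2 day 24 replicate 1. The highest group is an on-Dox group for every gene but Krt222, and the NSC and iNSC columns are at 0 except for Krt10 and Krt222.

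By day 4 most keratins had risen above their level in MEFs. A gene is called when its adjusted p from limma (Benjamini and Hochberg, over all genes of the table) is below 0.05 and it differs at least 2-fold; the words rose and fell are kept for such genes. Over the 4 cocktails together, 17 of the 25 keratins were called higher and 0 lower, where 9.79% of all 20760 genes tested were higher and 8.33% lower, and 0 keratins were lower at an unadjusted p below 0.05 in limma. Keratins listed at 0 in MEFs, NSCs and the lines, such as Krt16, Krt17 and Krt90, passed the filter only through cultures of the cocktails. Such keratins could be called higher but not lower, so the 0 lower is no result for them, and the 17 higher count them in. Their adjusted p values below come from a comparison that could call them in that direction only. The median log2 difference was 1.88 for the keratins and −0.02 for all genes. The count was 4 of 6 simple epithelial, 4 of 5 basal or activated and 4 of 7 suprabasal or mucosal keratins.

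Krt8, the type II keratin of simple epithelia, was 66 and 97 in the MEF libraries. At day 4 it was 4328 and 3824 in BKM_FNV, 4532 and 3985 in BKM_Sox17, 8954 and 8384 in BKM_Sox2 and 2407 and 2248 in K_FNV. Every day 4 library was above both MEF libraries, with a log2 change of 5.72 ± 0.47 (SE, adjusted p = 6.31e-11 in limma). Krt18, its type I partner, did not follow. It was 303 and 252 in MEFs, and at day 4 103 and 77 in BKM_FNV, 198 and 203 in BKM_Sox17, 499 and 428 in BKM_Sox2 and 316 and 369 in K_FNV. BKM_FNV and BKM_Sox17 lay below the MEFs, BKM_Sox2 and K_FNV above them, and the mean log2 change of −0.26 ± 0.31 was not called (adjusted p = 0.522 in limma).

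Other simple epithelial keratins started from different levels. Krt19, a short type I keratin of ducts and of many progenitor cells, was 471 and 428 in MEFs and rose by 1.57 ± 0.23 on the log2 scale. It was highest in BKM_Sox2 at day 4, with 4388 and 4093, against 581 and 522 in K_FNV. Krt7, the type II keratin of ductal and transitional epithelia, rose by 1.66 ± 0.42, but the cocktails split: it was 23 and 29 in MEFs, 500 and 369 in BKM_Sox2, and 9 and 12 in K_FNV, where it lay below the MEFs. Krt80, a type II keratin of differentiating epithelia, was 52 and 45 in MEFs and 318 to 1308 over the 8 day 4 libraries, a change of 3.46 ± 0.15. Krt20, a keratin of gut, bladder and Merkel cells, was already 139 and 150 in MEFs and 143 to 348 at day 4, and was not called.

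The basal and wound-associated keratins of stratified epithelia rose from near 0. Krt14 was 14 and 8 in MEFs and 1324 to 2803 over the 8 day 4 libraries, and rose by 7.14 ± 0.16 on the log2 scale (adjusted p = 1.16e-23). Krt16 and Krt17 were listed at 0 in both MEF libraries, so no fold is given. At day 4 Krt16 was 818 to 3049 (adjusted p = 3.24e-24) and Krt17 was 191 to 469 (adjusted p = 7.93e-17). Krt5, the type II partner of Krt14, was 0 to 7 at day 4 and was not called (adjusted p = 0.185). In both pairs, Krt5 with Krt14 and Krt8 with Krt18, 1 partner was called at day 4 and the other was not.

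Among the remaining keratins, Krt90, a type II gene of the chromosome 15 cluster, was listed at 0 in MEFs. At day 4 it was 10066 and 9808 in K_FNV, 4093 and 4240 in BKM_Sox2, 1291 and 1519 in BKM_Sox17 and 1247 and 1257 in BKM_FNV (adjusted p = 3.5e-18). Krt13, the type I keratin of mucosal suprabasal layers, was 2 and 0 in MEFs and 669 and 639 in K_FNV, against 62 to 227 in the other cocktails. Krt79, a type II keratin of the hair follicle duct, was 0 and 5 in MEFs and 588 and 371 in K_FNV, against 4 to 28 elsewhere. Krt1 was at most 19 and Krt42 at most 55 in a day 4 library, both called higher, while Krt10 (56 to 87, MEFs 71 and 82) and Krt222, a keratin-like gene (0 to 58, MEFs 56 and 52), were not called.

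Genes that anchor keratin filaments rose at the same time. Of the 13 desmosome and plakin genes 10 were called higher and 1 lower, including Dsg3, a desmosomal cadherin, listed at 0 in MEFs and at a mean of 378 at day 4, and Evpl, the plakin envoplakin, which rose by 7.03 ± 0.36. Of the 8 hemidesmosome genes 5 were higher and 0 lower, led by Itgb4, the integrin of hemidesmosomes, with 8.54 ± 0.22, and Lamb3 with 4.04 ± 0.32. Of the 12 cornified envelope genes 11 were higher, among them Sprr1a (6.99 ± 0.25). Of the 12 epithelial transcription factor genes 8 were higher and 2 lower, with Ehf and Elf3 listed at 0 in MEFs and at means of 74.9 and 97.8, while Trp63, the regulator of basal epidermis, was not called (adjusted p = 0.195 in limma). Of 10 genes of other intermediate filaments 1 was higher and 2 lower. Krt6a and Krt6b, the wound-associated type II partners of Krt16 and Krt17 that the name rule leaves out, both rose, Krt6a from 0 to a mean of 654 and Krt6b by 6.18 ± 0.37. The count of a list is a description, and shares to read it against are the 9.79% and 8.33% of all genes.

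Markers of other cell types moved with the keratins. The summed value of 6 simple epithelial markers (Cdh1, Epcam, Cldn3, Cldn4, Cldn7 and Ocln) was 52 to 103 in MEFs, with 2 of the 6 listed at 0, and at day 4 855 to 997 in BKM_FNV, 961 to 1070 in BKM_Sox17, 2459 to 2860 in BKM_Sox2 and 275 to 286 in K_FNV. The sum of 7 keratinocyte markers was 135 to 169 in MEFs and 1440 to 6304 over the cocktails, and that of 5 mesothelial markers was 723 to 806 in MEFs and 2571 to 8834, highest in K_FNV. The fibroblast sum was 37778 to 62968 in the 3 BKM cocktails and 119986 to 120100 in K_FNV. The part of these cells in the keratin values was not tested.

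**Figure D2:**
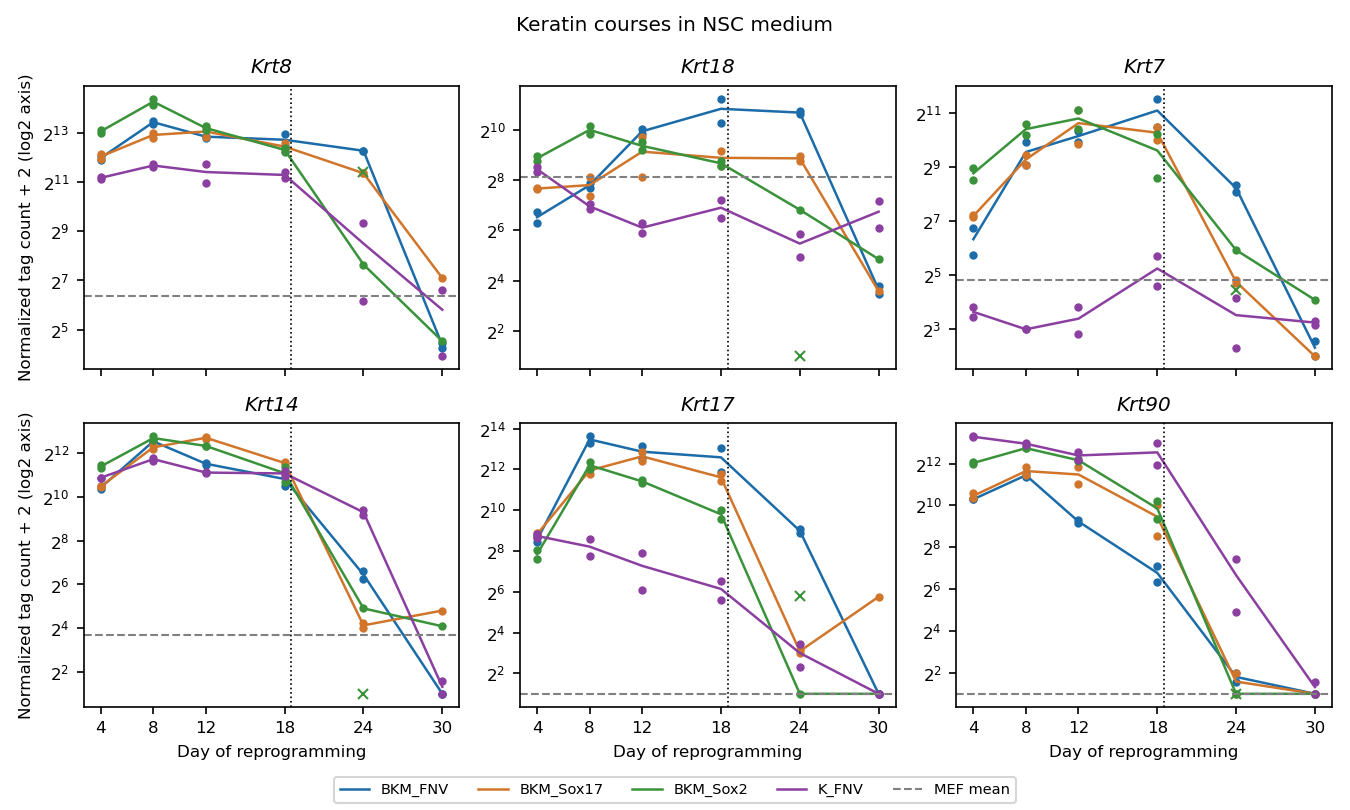
Values of Krt8, Krt18, Krt7, Krt14, Krt17 and Krt90 by day in the NSC-medium experiment, on a log axis of value + 2, one point per library and a line per cocktail through the mean of each day. The dashed line is the MEF mean, the dotted line the end of Dox, and crosses mark BKM_Sox2 day 24 replicate 1, which no line includes. Krt8 was at least 2035 in every library from day 4 to 18, and Krt7 and Krt17 of K_FNV lay below those of BKM_FNV from day 8 to 18.

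Between day 4 and day 18 on Dox, the keratins of BKM_FNV changed in both directions, with 7 of 25 higher and 8 lower where 11.4% and 11.5% of all genes were. Krt18 was 103 and 77 at day 4, 236 and 204 at day 8, 918 and 1034 at day 12, and 1244 and 2386 at day 18, a rise of 4.24 ± 0.39 on the log2 scale (adjusted p = 3.69e-10). Each day lay above the one before, in both libraries. Krt8 was 10768 and 11685 at day 8 and 5672 and 7997 at day 18, and its change from day 4 was not called (0.73 ± 0.60, adjusted p = 0.365). Krt7 rose by 4.75 ± 0.53, to 1421 and 2939, and Krt17 by 3.93 ± 0.41, from 341 and 403 to 3762 and 8534, with 10068 and 12547 at day 8 between them. Krt5 rose from 2 and 0 to 30 and 196, by 4.81 ± 0.64, with day 18 libraries far apart, and the call was lost when only these groups were fitted (adjusted p = 0.0764). Krt19 (1.15 ± 0.29) and Krt80 (1.24 ± 0.19) rose less.

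The keratins that fell in BKM_FNV were Krt84, Krt90, Krt12, Krt13, Krt16, Krt27, Krt1 and Krt15. Krt90 went from 1247 and 1257 at day 4 through 2600 and 2955 at day 8 to 80 and 135, a fall of −3.56 ± 0.50. Krt16 fell by 1.88 on the log2 scale, from 818 and 911 to 187 and 289. Krt13 fell by 2.13, from 204 and 227 to 37 and 61. By class, 4 of 6 simple epithelial keratins rose and 0 fell, 2 of 5 basal or activated keratins rose and 2 fell, and 0 of 7 suprabasal or mucosal keratins rose and 3 fell.

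BKM_Sox17 had 6 keratins higher and 4 lower at day 18 than at day 4, against 9.37% and 9.67% of all genes. Krt7 rose by 3.06 ± 0.53, to 1029 and 1437, Krt17 by 2.78 ± 0.41, to 3457 and 2768, and Krt14 by 1.07 ± 0.20, to 3087 and 2920. Krt18 rose by 1.19 ± 0.39, from 198 and 203 to 372 and 567, and this call was lost when BKM_Sox17 day 18 replicate 2 or either day 4 library was left out, and with only these groups fitted (adjusted p = 0.0664). BKM_Sox2 had 4 higher and 6 lower, against 8.95% and 8.01%. Its Krt17 rose by 1.96 ± 0.41, to 1023 and 752, Krt19 fell by 1.44, from 4388 and 4093 to 1615 and 1505, Krt13 fell by 2.86 and Krt90 fell by 2.24. The call of Krt17 was lost with BKM_Sox2 day 24 replicate 1 kept (adjusted p = 0.133), and that of Krt90 with only these groups fitted (adjusted p = 0.0597). Its Krt18 of 371 and 436 at day 18 was not called (−0.20 ± 0.39, adjusted p = 0.757).

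K_FNV had 3 keratins higher and 9 lower, against 5.4% and 4.97% of all genes. Krt13 fell by 3.87, from 669 and 639 to 48 and 38, and Krt79 fell by 3.26, from 588 and 371 to 55 and 40. Krt17 fell by 2.66, from 401 and 447 to 47 and 90, and Krt18 fell by 1.57, from 316 and 369 to 146 and 89. The call of Krt17 was lost when only these groups were fitted (adjusted p = 0.0632). Krt20 rose by 1.26 ± 0.36, from 348 and 310 to 790 and 792. This call was lost without K_FNV day 4 replicate 2 and with BKM_Sox2 day 24 replicate 1 kept (adjusted p = 0.85 in limma). Krt7 (1.51 ± 0.53, from 9 and 12 to 50 and 22) and Krt1 (1.56 ± 0.59, from 3 and 4 to 8 and 24) also rose. Both calls were lost without either K_FNV day 4 library, that of Krt7 also without day 18 replicate 1 and that of Krt1 also without day 18 replicate 2. Without K_FNV day 4 replicate 1 or replicate 2, 7 keratins were called in place of 12. The simple epithelial marker sum was 7657 to 11788 in BKM_FNV and 1054 to 1148 in K_FNV at day 18, and the part of such cells in these values was not tested.

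**Figure D3:**
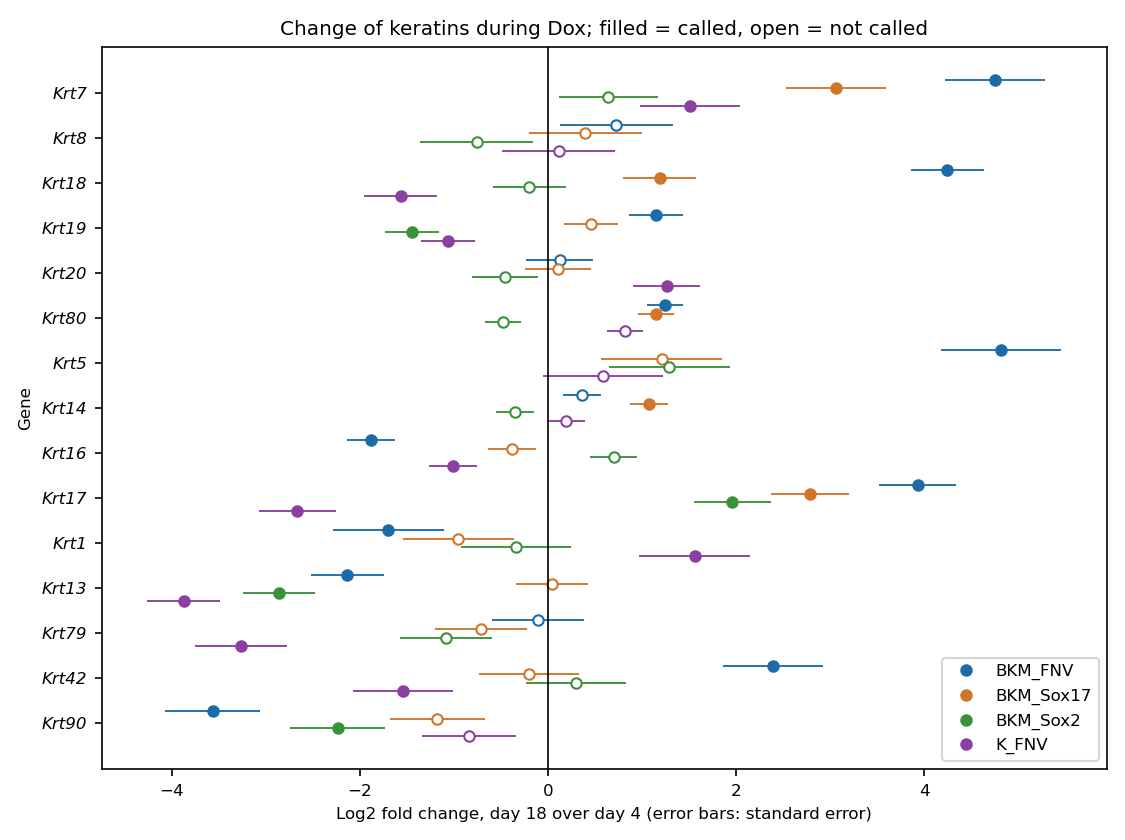
Log2 change from day 4 to day 18 (points, with bars of 1 standard error from limma) for 15 of the keratins described (Krt10 and Krt222 are not drawn), one colour per cocktail, filled where called. BKM_FNV and K_FNV are called in opposite directions for Krt17, Krt18, Krt19, Krt42 and Krt1, and the points of Krt8 are open in all 4 cocktails.

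The change from day 4 to day 18 itself was compared between cocktails. BKM_FNV against BKM_Sox17 gave 3 keratins with a larger and 3 with a smaller change, against 1.24% and 0.896% of all genes. Krt18 changed by 3.06 ± 0.55 more on the log2 scale in BKM_FNV (adjusted p = 0.0011). None of the 6 calls held when BKM_Sox2 day 24 replicate 1 was kept in the fit or when only these groups were fitted (0 called in both). BKM_FNV against BKM_Sox2 gave 7 larger and 4 smaller, against 3.59% and 3.69%, with Krt18 4.44 ± 0.55, Krt7 4.11 ± 0.75 and Krt19 2.59 ± 0.41 larger. With BKM_Sox2 day 24 replicate 1 kept, the calls of Krt18 (adjusted p = 0.0823) and Krt19 (adjusted p = 0.423) were lost, and with only these groups fitted that of Krt7 (adjusted p = 0.0824). K_FNV against BKM_FNV gave 5 larger and 9 smaller, against 7.4% and 7.32%, with Krt17 −6.59 ± 0.58 and Krt18 −5.81 ± 0.55. BKM_FNV stands in all 3 of these comparisons, so they are not independent of each other.

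Day of highest mean differed by cocktail among keratins whose mean reached 100 on Dox. In BKM_Sox2 it was day 8 for 10 of 11 such keratins, in BKM_Sox17 day 12 for 9 of 10, and in BKM_FNV day 8 for 8 of 13, with Krt5, Krt7 and Krt18 highest at day 18. In K_FNV it was day 4 for 7 of 11, and day 18 for Krt20 alone. The differences in day were not tested.

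Averaged over the 4 on-Dox days, each compared within its day, K_FNV differed from BKM_FNV in 11 of 25 keratins, 4 higher and 7 lower, where 7.5% and 6.97% of all genes were. Krt7 was between 5 and 50 in the 8 K_FNV libraries and between 52 and 2939 in those of BKM_FNV, and was lower by −5.45 ± 0.26 on the log2 scale (adjusted p = 5.36e-16). Krt17 was lower by −4.34 ± 0.21, although the libraries of day 4 overlapped (401 and 447 against 341 and 403). Krt19 was lower by −2.74 ± 0.14, Krt18 by −1.66 ± 0.19, Krt8 by −1.37 ± 0.30 and Krt80 by −1.35 ± 0.10, and Krt5 was 0 or 1 in every K_FNV library. At day 4 the direction of Krt18 was the reverse, with both K_FNV libraries above both of BKM_FNV. Krt90 was higher by 3.34 ± 0.25, with 3851 and 7997 in K_FNV against 80 and 135 in BKM_FNV at day 18. Krt79 was higher by 3.12 ± 0.24, Krt16 by 1.37 ± 0.13 and Krt20 by 1.08 ± 0.18, and the call of Krt20 was lost with BKM_Sox2 day 24 replicate 1 kept (adjusted p = 0.128). Krt14 did not differ by the call rule (−0.12 ± 0.10, adjusted p = 0.325). On the mean over the days, the lower group holds 5 of the 6 keratins classed as simple epithelial, with Krt80 counted among them and Krt20 the exception in direction. In the same comparison all 6 simple epithelial markers were lower, with a median log2 difference of −3.27, and their part was not tested.

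The 3 BKM cocktails were also compared with each other over the on-Dox days. BKM_FNV had 4 keratins higher and 5 lower than BKM_Sox2, against 3.37% and 2.81% of all genes. Krt17 was higher by 1.53 ± 0.21, Krt13 by 1.95 ± 0.19 and Krt79 by 1.42 ± 0.24, and Krt42 was 4 to 50 in BKM_FNV and 0 to 5 in BKM_Sox2. Krt90 was lower by −2.25 ± 0.25, Krt16 by −1.68 ± 0.13, and so were Krt75, Krt2 and Krt27. BKM_FNV had 2 higher and 2 lower than BKM_Sox17, against 2.29% and 1.43%: Krt42 (2.13 ± 0.27) and Krt5 (1.29 ± 0.32) higher, Krt90 (−1.27 ± 0.25) and Krt16 (−1.24 ± 0.13) lower. The call of Krt5 was lost without BKM_FNV day 18 replicate 2, its highest library. BKM_Sox17 had 3 higher and 4 lower than BKM_Sox2, against 2.12% and 1.86%, and with a pseudocount of 10 in place of 2 only 1 of these calls was made. Krt8, Krt14 and Krt18 were called in none of these 3 comparisons. Each cocktail stands in 2 of these 3 comparisons, which are therefore not independent of each other.

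Keratin levels were then followed to days 24 and 30, after Dox was withdrawn. The submitters' short sample descriptions of days 24 and 30 are written in a different form from those of the earlier days. Whether these libraries were made apart from the others is not given in the sources used here, and levels on each side are given without a test. In BKM_FNV, Krt8 was 5007 in both day 24 libraries and 20 and 17 at day 30, and Krt18 was 1570 and 1700, then 12 and 9. In the same cultures Krt14 had 97 and 74 at day 24 and 0 in both libraries at day 30, and Krt16 had 6 and 7 and then 0. Krt17 had 538 and 474 at day 24 and 0 in both libraries at day 30, and Krt5 had 27 and 35, then 3 and 0. The simple epithelial marker sum was 3045 to 3097 at day 24 and 129 to 159 at day 30.

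BKM_Sox17 had Krt8 at 2653 in both day 24 libraries and at 135 in its single day 30 library, with Krt18 at 433 and 492, then 10. In the retained BKM_Sox2 library of day 24 Krt8 was 199 and Krt18 111, and at day 30 they were 21 and 27. The library left out showed Krt8 at 2753 and Krt18 at 0. K_FNV had Krt8 at 69 and 654 at day 24 and 13 and 95 at day 30, with wide gaps between replicates, and kept Krt14 at 682 and 576 and Krt20 at 255 and 502 at day 24. At day 30 Krt14 was 0 and 1 there, and Krt20 was 64 and 117.

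Tested over days 24 and 30 together, K_FNV had 9 keratins higher and 5 lower than BKM_FNV, against 10.9% and 10.8% of all genes. Krt80 was higher by 3.12 ± 0.14, Krt13 by 2.32 ± 0.27, Krt20 by 2.27 ± 0.25 and Krt14 by 1.58 ± 0.14, while Krt17 (−3.05 ± 0.29), Krt7 (−2.01 ± 0.37), Krt8 (−1.82 ± 0.42) and Krt18 (−1.13 ± 0.27) were lower. The means of Krt80, Krt13 and Krt20 were higher in K_FNV than in BKM_FNV on both days. The differences of Krt14, Krt17, Krt7, Krt8 and Krt18 lay at day 24. At day 30 K_FNV had Krt18 at 143 and 67 against 12 and 9 in BKM_FNV, Krt7 at 7 and 8 against 2 and 4, and Krt8 at 13 and 95 against 20 and 17, and Krt17 was 0 in all 4 libraries. The call of Krt8 was lost when only these groups were fitted (adjusted p = 0.183). Against BKM_Sox17, BKM_FNV had 2 higher and 3 lower, with 9.67% and 8.15% of all genes. Krt7 was higher by 1.88 ± 0.42 and Krt80 lower by −2.01 ± 0.15. Against BKM_Sox2, BKM_FNV had 5 higher and 1 lower, with 8.72% and 6.42%, and BKM_Sox17 had 5 higher and 1 lower than BKM_Sox2, with 4.74% and 3.28%. Krt8 was higher in both, by 2.23 ± 0.52 and 3.15 ± 0.56. These BKM_Sox2 values rest on 1 library a day. Without its day 24 library the Krt8 difference to BKM_FNV became −0.17 and was not called, and those of Krt17 and Krt18 became 0 and −1.22.

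Against MEFs, days 24 and 30 of BKM_FNV had 5 keratins higher and 3 lower (13.6% and 11.9% of all genes), BKM_Sox17 4 and 3 (10.1% and 8.83%), BKM_Sox2 1 and 4 (10.1% and 9.42%) and K_FNV 7 and 3 (10.7% and 8.38%). Krt19, which MEFs express at 471 and 428, was lower in all 4, by −2.50 ± 0.25, −1.61 ± 0.27, −3.32 ± 0.29 and −1.70 ± 0.25, as a mean over both days. At day 24 alone Krt19 was 761 and 749 in BKM_FNV and 864 and 884 in BKM_Sox17, above both MEF libraries, and 64 in BKM_Sox2 and 447 and 238 in K_FNV. At day 30 it was 8 and 5, 23, 29, and 61 and 53 in the same order. With BKM_Sox2 day 24 replicate 1 kept, the Krt19 calls of BKM_Sox17 (adjusted p = 0.157) and K_FNV (adjusted p = 0.0838) were lost. For BKM_Sox17 the Krt19 difference turned to 0.96 without its day 30 library, and Krt18 went from −1.90 to 0.74. As a mean over both days, Krt14 was higher than in MEFs by 1.63 ± 0.17 in K_FNV, and that of the BKM cocktails was not called. The K_FNV mean of Krt14 was 629 at day 24 and 0.5 at day 30, the latter below both MEF libraries. All 4 comparisons share the same 2 MEF libraries.

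NSCs and both induced lines held almost no keratin RNA. All keratins of the table were listed at 0 in their 6 libraries except for Krt10, at 119 to 136, and Krt222, at 84 to 139. MEFs had 71 and 82 of Krt10 and 56 and 52 of Krt222. Krt19, Krt18, Krt20, Krt8, Krt80, Krt7 and Krt14 were called lower in NSCs than in MEFs, 7 of 25 keratins against 16.7% of all genes. 0 were called higher against 17.7%, with 1 keratin higher at an unadjusted p below 0.05 in limma. Only Krt10 and Krt222 were above 0 in NSCs, so no other keratin could be called higher there. Between iNSC_BKMF and NSCs 0 keratins were called in either direction, against 1.02% and 1% of all genes, and between iNSC_KF and NSCs 0, against 4.79% and 4.09%. In both, 0 keratins had an unadjusted p below 0.05 in limma. Keratins other than Krt10 and Krt222 were listed at 0 on both sides and could not be called. The counts of 0 were therefore largely fixed in advance and do not measure likeness.

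**Figure D4:**
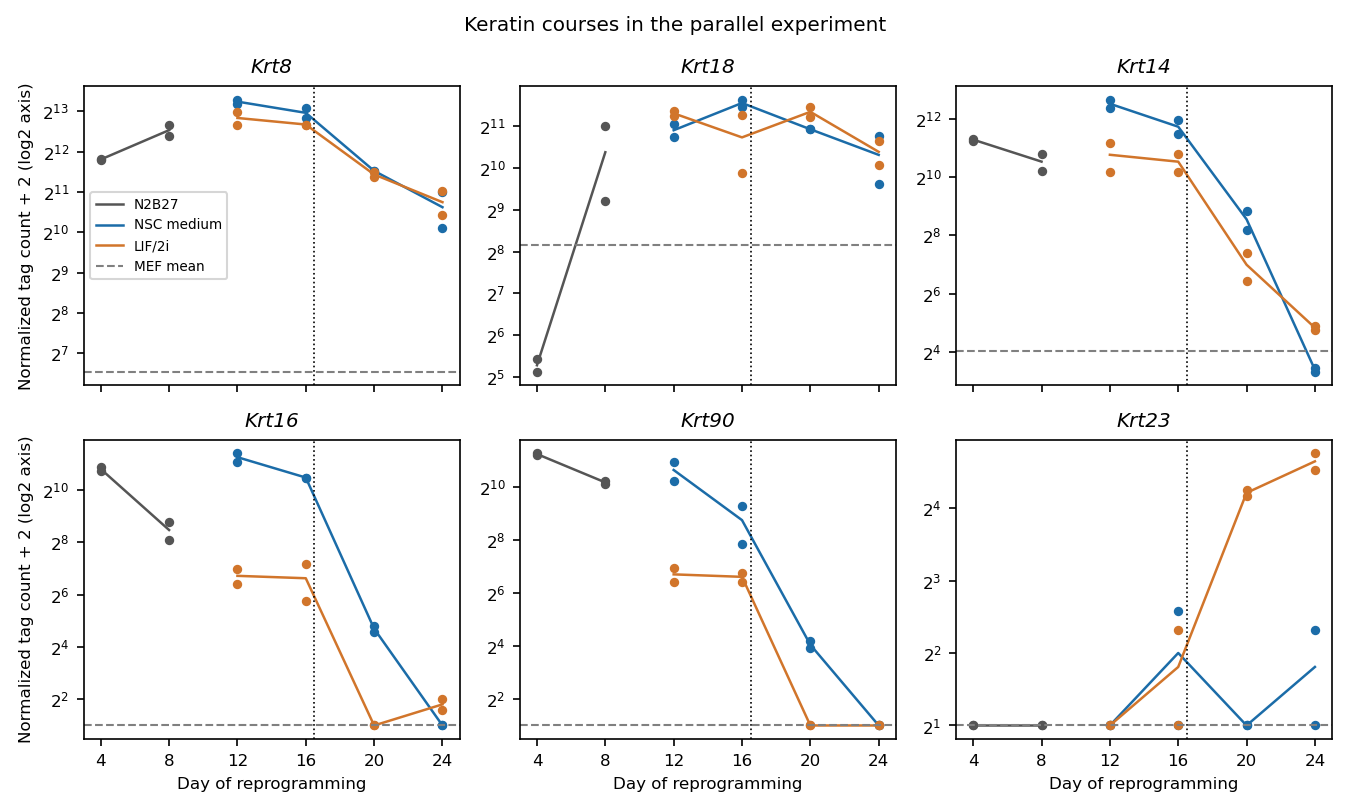
Values of Krt8, Krt18, Krt14, Krt16, Krt90 and Krt23 by day in the parallel experiment, on a log axis of value + 2, one point per library and a line per medium through the mean of each day. The dashed line is the MEF mean and the dotted line the end of Dox. Krt16 and Krt90 lie lower in LIF/2i than in NSC medium on Dox, and Krt23 reaches 16 to 25 in LIF/2i after Dox. Krt8 and Krt18 overlap between the media at day 24 but not at day 20.

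The parallel experiment used Klf4, c-Myc and eSox17FNV and a first step in N2B27. At day 4, 13 of 21 keratins were higher than in MEFs and 1 lower, against 9.88% and 8.54% of all 20468 genes tested. Here too, keratins listed at 0 in MEFs could not be called lower. Krt8 rose from 75 and 107 to 3565 and 3594, by 5.29 ± 0.24 on the log2 scale. Krt18 fell from 311 and 260 to 41 and 33, by −2.88 ± 0.49 (adjusted p = 0.000287). Krt14 rose from 18 and 11 to 2545 and 2439 (7.27 ± 0.37), and Krt16, Krt17 and Krt90, listed at 0 in MEFs, were 1700 to 1874, 1202 to 1215 and 2367 to 2464. Krt5, also at 0 in MEFs, was 38 and 32 and was called here. The MEF libraries are those of the other experiment, normalized again, so the MEF side is shared by both day 4 results.

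From day 4 to day 8 in N2B27, 4 keratins rose and 3 fell, against 3% and 1.71% of all genes. Krt18 rose by 4.83 ± 0.49, to 590 and 2057, Krt5 by 4.47 ± 0.61, to 827 and 800, Krt7 by 3.65 ± 0.55, to 124 and 742, and Krt42, a type I keratin, by 3.64 ± 0.61, to 376 and 84. Krt13 (−2.50 ± 0.45), Krt16 (−2.37 ± 0.35) and Krt12, the cornea keratin (−1.30 ± 0.38), fell. The replicates of day 8 were far apart for Krt18, Krt7 and Krt42, and the calls of these 3 genes, of Krt16 and of Krt12 were lost when only the days compared were fitted. At 800 to 827, Krt5 in N2B27 was above every library of the NSC-medium experiment, where its highest value was 196, although the tables were normalized apart.

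The move to NSC medium was followed at day 12 by 7 higher and 2 lower keratins, against 7.44% and 8.73% of all genes. Krt12 rose by 3.89 ± 0.38, Krt17 by 2.91 ± 0.47, Krt16 by 2.82 ± 0.35, Krt42 by 2.75 ± 0.61, Krt20 by 2.24 ± 0.46, Krt14 by 2.00 ± 0.37 and Krt19 by 1.08 ± 0.31. Krt5 fell by 2.62, to 122 and 139, and Krt15 fell by 2.52. Without N2B27 day 8 replicate 2 the calls of Krt42 and Krt15 were lost. The move to LIF/2i was followed by 1 higher and 7 lower, against 6.81% and 7.65%. Krt17 rose by 1.89 ± 0.47, a call lost without N2B27 day 8 replicate 2. Krt5 fell by 3.90, to 64 and 43, and Krt15 (−3.81 ± 0.64), Krt90 (−3.49 ± 0.35) and Krt16 (−1.73 ± 0.35) fell as well. Both comparisons share the day 8 libraries.

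Over days 12 and 16 on Dox, 8 of 21 keratins were lower in LIF/2i than in NSC medium and 1 higher, against 7.45% and 8.07% of all genes. Krt16 was 84, 123, 142 and 52 in LIF/2i and 2179, 2713, 1425 and 1425 in NSC medium, lower by −4.28 ± 0.25 (adjusted p = 5.97e-09), and the groups did not overlap on either day. Krt12 was lower by −3.12 ± 0.27, Krt20 by −3.09 ± 0.33, Krt90 by −2.95 ± 0.25, Krt80 by −2.52 ± 0.29, Krt14 by −1.52 ± 0.26, Krt19 by −1.50 ± 0.22 and Krt13 by −1.37 ± 0.32. Krt1, with 5 and 68, then 8 and 21 in LIF/2i against 2 to 4, was higher by 2.05 ± 0.51, a call lost when only these groups were fitted. Krt8 (−0.35 ± 0.17, adjusted p = 0.104), Krt18 (−0.28 ± 0.35, adjusted p = 0.531) and Krt5 were not called. Of the cornified envelope genes 7 of 11 were lower and 1 higher, among them Sprr1a, the small proline-rich cornified envelope protein, by −5.38 ± 0.34, while 1 of 13 desmosome and plakin genes was higher and 0 lower. The simple epithelial marker sum was 7668 to 9415 in LIF/2i and 3351 to 3375 in NSC medium at day 12, and that of 5 pluripotency genes 20680 to 22970 and 8488 to 8491. Their part in the keratin values was not tested.

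Within this experiment the later days off Dox could be tested against the days on it. No culture of either experiment was sampled on Dox at the later days, so withdrawal and time cannot be told apart. In NSC medium 14 of 21 keratins were lower at days 20 and 24 than at days 12 and 16 and 0 higher, against 9.33% and 11.2% of all genes, and 0 were higher at an unadjusted p below 0.05 in limma. The median log2 difference was −2.93 for the keratins and −0.06 for all genes. Krt14 fell by 6.16, from 5248, 6459, 2836 and 3943 to 458, 289, 9 and 8. Krt17 fell by 6.52, to 485, 154, 5 and 12, and Krt16 and Krt90 were listed at 0 in both day 24 libraries. Krt8 fell by 2.06, from 9340, 10024, 7352 and 8617 to 2942, 2942, 1108 and 2040. Krt18 did not pass the call rule, with 2111, 1700, 2820 and 3165 on Dox and 1936, 1936, 787 and 1746 after it (−0.66 ± 0.35, adjusted p = 0.124). Krt6a, outside the name rule, fell by 5.63, 8 of 13 desmosome and plakin genes and 8 of 11 cornified envelope genes were lower, and none of either list was higher.

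In LIF/2i 15 keratins fell and 1 rose after Dox, against 5.16% and 6.4% of all genes. Krt17 fell by 7.24, from 3021, 2958, 4725 and 2702 to 40, 29, 12 and 10, and Krt14 fell by 4.71, to 84, 167, 25 and 28. Krt8 fell by 1.68, to 2889, 2642, 2064 and 1369, and Krt18 was not called (−0.09 ± 0.35, adjusted p = 0.874). Krt23, a type I simple epithelial keratin absent from the NSC-medium table, rose from 0, 0, 3 and 0 to 17, 16, 21 and 25. In these cultures the pluripotency sum was 82978 to 83505 in LIF/2i and 1498 to 4503 in NSC medium at day 24.

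LIF/2i and NSC medium after Dox differed in 7 keratins, 2 higher and 5 lower in LIF/2i, against 12.2% and 12.3% of all genes. Krt23 and Krt42 (1.57 ± 0.43) were higher, and Krt20 (−1.67 ± 0.33), Krt90, Krt16, Krt80 (−1.42 ± 0.29) and Krt17 (−1.27 ± 0.33) were lower. The size of the change after Dox differed between the media for 9 keratins, with 8 more positive in LIF/2i and 1 less, against 6.51% and 7.36% of all genes. Krt16 (2.83 ± 0.35), Krt12 (2.87 ± 0.38) and Krt14 (1.44 ± 0.37) fell less in LIF/2i, from lower on-Dox levels. For Krt8 (0.38 ± 0.24, adjusted p = 0.246) and Krt18 (0.57 ± 0.49, adjusted p = 0.434) no difference was called.

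**Figure D5:**
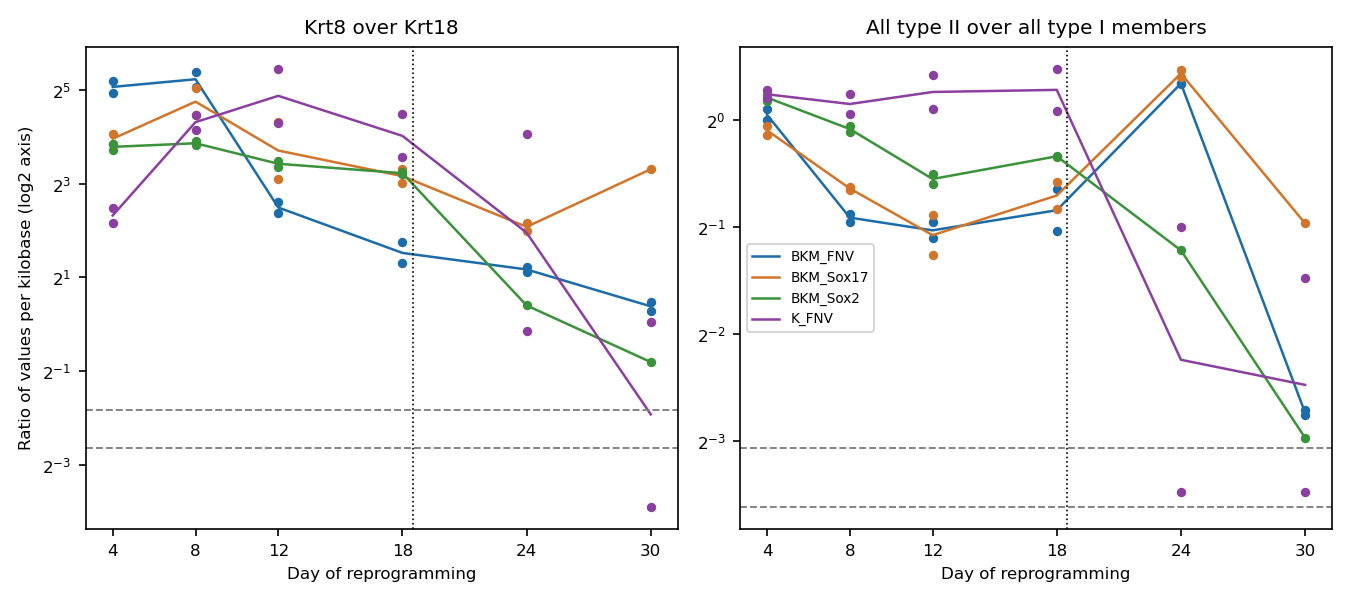
Left, ratio of Krt8 to Krt18, and right, ratio of summed type II to summed type I keratins, each value per kilobase of transcript, by day in the NSC-medium experiment on log axes, one point per library (without BKM_Sox2 day 24 replicate 1) and a line per cocktail through the geometric mean of each day. Dashed lines are the 2 MEF libraries and the dotted line the end of Dox. Krt8 over Krt18 in BKM_FNV runs from 30.8 and 36.4 at day 4 to 1.22 and 1.39 at day 30, above the MEF libraries throughout.

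Because keratins pair 1 to 1, the levels of partners were set side by side per kilobase of the longest annotated transcript. Krt8 over Krt18 was 0.16 and 0.282 in the MEF libraries of the NSC-medium table. In BKM_FNV it was 30.8 and 36.4 at day 4, 33.5 and 42 at day 8, 6.11 and 5.17 at day 12, 3.35 and 2.46 at day 18, 2.34 and 2.16 at day 24 and 1.22 and 1.39 at day 30. It went down at each step after day 8 in both libraries up to day 30. In N2B27 it was 63.8 and 79.9 at day 4 and 6.62 and 2.33 at day 8, and at day 20 it was 1.12 in both libraries of NSC medium and 0.762 and 0.812 in LIF/2i. In BKM_Sox2 it was 13.2 and 14.4 at day 4 and still 9.51 and 9.17 at day 18. In BKM_Sox17 it was 16.8 and 14.4 at day 4, 8.57 and 19.9 at day 12, 4.5 and 3.96 at day 24 and 9.91 in the single day 30 library. In K_FNV it was 5.59 and 4.47 at day 4, 17.8 and 22.2 at day 8 and 43.7 and 19.7 at day 12. Its replicates were far apart later, with 0.904 and 16.6 at day 24 and 0.0667 and 1.04 at day 30.

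Summed over all members, type II over type I per kilobase was 0.0817 and 0.12 in the same MEF libraries. At day 4 it was 1.07 and 0.997 in BKM_FNV and 1.18 and 1.13 in BKM_Sox2, and K_FNV stayed between 1.04 and 1.39 through day 18. In BKM_FNV it was 0.545 and 0.518 at day 8, where type I Krt14, Krt17 and Krt16 were high, and 1.27 and 1.26 at day 24, where Krt8 remained. Both ratios are descriptions with no test. The normalization sets each library to one distribution, so a ratio of values is not a ratio of reads, and Krt6a and Krt6b, which are type II, are not in the sum.

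Genes with a similar pattern across the 28 groups of the NSC-medium table were searched for with all keratins, Krt6a and Krt6b included, left out. Among the other genes, those whose log2 means were most like those of Krt8 were Dsp (r = 0.971), Spint2 (0.965) and St14 (0.956). Dsp encodes the desmosomal plakin desmoplakin, and Spint2 and St14 a protease inhibitor and a membrane protease of epithelia. For Krt14 they were Klk7 (0.963), Slurp1 (0.962) and Dsg1b (0.960), all expressed in differentiated epidermis. For Krt5 they were Grb7 (0.892), B4galnt3 (0.886) and Spint1 (0.885). The groups share cocktails, days and normalization, so these values are a description.

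The 10 keratins whose group mean never reached 100 were Krt2, Krt12, Krt15, Krt23, Krt26, Krt27, Krt28, Krt75, Krt76 and Krt84. Krt84, a hair and nail keratin, was listed at 0 in MEFs and was 69 and 73 at day 4 in BKM_FNV. Krt12 was at most 37 in the NSC-medium experiment and 76 and 83 at day 12 in NSC medium of the parallel one. Krt2, a late suprabasal keratin, was highest at 31 and 81 at day 12 in BKM_Sox2, where Krt75, a companion layer keratin, was 25 and 22. Krt27, a root sheath keratin, was 25 and 35 at day 4 in BKM_Sox2. Krt28, from the parallel table, went against the pattern: it was 22 and 23 in NSCs and 24 and 30 in iNSC_BKMF, and at most 3 in every other library. Krt15 and Krt26 each had a value over 100 only in BKM_Sox2 day 24 replicate 1 (128 and 101), and so did Krt76 (112). Elsewhere Krt15 was at most 68, Krt26 at most 59 and Krt76 at most 35.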

How the data were processed

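RNA-seq values were taken from 2 tables that the authors deposited, with 54 libraries of the NSC-medium experiment and 26 of the parallel experiment. The values are the authors' deposited normalized tag counts, a score that is neither a raw count nor a per-million unit: they are whole numbers, and every column of a table has the same highest value (78139 and 87546), as quantile normalization gives. Per the submitters' processing notes, Bowtie2 2.0, RSEM and mm10 were used. Depth is unknown, so no interval that needs it is given, and a 0 is written as listed at 0. MEF, NSC and iNSC_BKMF libraries stand in both tables, which were normalized apart, so tests were made within a table only. NSC columns were matched to their group only, and 4 columns that match no labelled sample were not used.

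Values were compared as log2 of value plus 2 in limma 3.58.1 (R 4.3.3; Python 3.11.15 for tables and figures), with a mean per group and a variance trend, in the genes that reached 10 in 2 or more libraries (20760 and 20468). Fold changes are on that scale, which understates those of low genes, and are given as log2 ± SE with two-sided p adjusted by Benjamini and Hochberg over all genes of a comparison. The script was tested on simulated data. BKM_Sox2 day 24 replicate 1 was left out (53 libraries fitted). The 32 comparisons average differences within a day, and a group with 1 library is assumed to vary like the others.

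Values are given for Krt8, Krt14, Krt5 and every keratin with a group mean of at least 100 (17 in all). They are also given for up to 4 of the largest rises and falls of a comparison with their filament partners. Up to 2 called genes of each list of related genes are given. So are the 3 genes most like Krt8, Krt14 and Krt5, with keratins left out of that search. Members and lists were chosen with earlier results of these data known. Alternatives were a pseudocount of 10, no filter on low values, rescaling by median-of-ratios size factors, a replicate block, fitting the compared groups only, keeping the library left out, and leaving out each library in turn. Coordinates are from GENCODE M21 and promoters from RefSeq.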

Additional observations from a re-analysis of the deposited data

Results flagged for a closer look

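For 27 pairs of a keratin and a comparison, the change of 1 cocktail or medium differed from that of another by a test of the difference itself (limma, adjusted p below 0.05 and at least 2-fold), and the sizes are given here as differences of log2 changes. They cover the keratins named by rule, so other called differences are in the counts of the report.

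Between day 4 and day 18, BKM_FNV exceeded BKM_Sox17 by 3.61 for Krt5 (adjusted p = 0.0181), 3.06 for Krt18 (adjusted p = 0.0011) and 2.60 for Krt42 (adjusted p = 0.0408), and stood below it by −2.39 for Krt90 (adjusted p = 0.0476), −2.17 for Krt13 (adjusted p = 0.0176) and −1.50 for Krt16 (adjusted p = 0.0124). BKM_FNV exceeded BKM_Sox2 by 4.44 for Krt18, 4.11 for Krt7, 3.52 for Krt5 and 2.59 for Krt19, and stood below it by −2.58 for Krt16, −2.45 for Krt12, −1.89 for Krt84 and −1.79 for Krt15, with adjusted p from 3.67e-06 (Krt18) to 0.0188 (Krt15). K_FNV stood below BKM_FNV by −6.59 for Krt17, −5.81 for Krt18, −4.23 for Krt5 and −3.94 for Krt42, and exceeded it by 3.25 for Krt1, 2.72 for Krt90, 2.39 for Krt12 and 1.90 for Krt84, with adjusted p from 5.34e-09 (Krt17) to 0.005 (Krt84). Krt5 of K_FNV was listed at 0 at day 4 and that of BKM_FNV lay near 0, so its values depend on the pseudocount. None of the 6 BKM_Sox17 calls held with BKM_Sox2 day 24 replicate 1 kept or with only the compared groups fitted. Of the BKM_Sox2 calls, those of Krt18, Krt5, Krt19, Krt12, Krt84 and Krt15 were lost with that library kept. Those of Krt7, Krt5, Krt12, Krt84 and Krt15 were lost with the compared groups only. For K_FNV, Krt12 was lost with the library kept, and Krt1 and Krt5 with the compared groups only.

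Between the on-Dox and later days of the parallel experiment, LIF/2i exceeded NSC medium by 3.16 for Krt23 (adjusted p = 0.000343), 2.87 for Krt12, 2.83 for Krt16 and 1.44 for Krt14, and stood below it by −2.20 for Krt1 (adjusted p = 0.0277). Some groups of Krt23, Krt12, Krt16 and Krt1 were listed at 0 in all their libraries, so these sizes depend on the pseudocount too.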

How the results depend on the processing

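Of 185 named pairs of a keratin and a comparison, 185 kept their direction and call without the filter on low values, 183 after rescaling, 152 with a pseudocount of 10, and 141 with only the compared groups fitted. With BKM_Sox2 day 24 replicate 1 kept, 101 of the 137 pairs of that table did, and of the values with 1 library left out 1310 did, 94 lost the call and 7 reversed. The cause of these losses was not tested.

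Counts of called keratins moved by over 1.5 times as follows. With the library kept: BKM_Sox17 day 18 versus day 4 from 10 to 6, K_FNV from 12 to 5, BKM_FNV versus BKM_Sox17 after Dox from 5 to 3, BKM_Sox17 after Dox versus MEFs from 7 to 2, and the differences of the day 18 changes of BKM_FNV to BKM_Sox17 from 6 to 0 and to BKM_Sox2 from 11 to 4. With the compared groups only: BKM_Sox2 day 18 versus day 4 from 10 to 5, K_FNV from 12 to 4, BKM_FNV versus BKM_Sox17 after Dox from 5 to 3, the same differences of changes from 6 to 0 and from 11 to 5, K_FNV after Dox versus MEFs from 10 to 6, N2B27 day 8 versus day 4 from 7 to 3, and LIF/2i day 12 versus N2B27 day 8 from 8 to 5. With a pseudocount of 10: BKM_Sox17 versus BKM_Sox2 from 7 to 1 on Dox and from 6 to 3 after it, BKM_Sox17 after Dox versus MEFs from 7 to 4, and LIF/2i versus NSC medium after Dox from 7 to 4. With 1 library left out, the 12 calls of K_FNV day 18 versus day 4 became 7 to 9, the 6 of the difference of BKM_FNV to BKM_Sox17 became 1 to 6, and the 7 of BKM_Sox17 after Dox versus MEFs became 4 to 9.

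Without the lone day 24 library of BKM_Sox2, the Krt17 difference to BKM_FNV went to 0, in a range of 0 to 7.99. Signs turned without that library for 3 others. Against BKM_FNV, Krt8 ranged from −0.17 to 4.64 and Krt18 from −1.22 to 3.86, and against BKM_Sox17 Krt19 from −0.31 to 3.73. They also turned without the lone day 30 libraries, for Krt18 (−2.03 to 0.74) and Krt19 (−1.68 to 0.96) of BKM_Sox17 against MEFs and Krt20 of BKM_Sox2 against MEFs (−3.11 to 0.41).

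Counts over all genes moved too. With the library kept, they went from 3762 to 2384 at day 4, from 4752, 3953, 3520 and 2154 to 2113, 1706, 1470 and 737 in the 4 day 18 comparisons, from 444, 1512 and 3056 to 38, 225 and 644 in their differences, from 772 to 448 and 826 to 536 for BKM_Sox17 on Dox, from 3699 to 2266 and 3144 to 6694 for BKM_FNV against BKM_Sox17 and BKM_Sox2 after Dox, from 5280, 3929 and 3965 to 3426, 2276 and 2295 against MEFs, and from 420 and 1844 to 93 and 708 for the lines. With the compared groups only they went from 3520 to 2128, 2154 to 1236 and 1512 to 871 for day 18, from 420 and 1844 to 134 and 425 for the lines, and from 963 to 294 and 2959 to 1404 in the parallel experiment. Rescaling moved the median of all genes at day 4 from −0.02 to 0.11, where 17 keratins were called both ways, and the share of higher calls from 57.6% to 68.1% for BKM_FNV versus BKM_Sox2 after Dox and from 63.8% to 78.0% for N2B27 day 8.

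Replicates of the same number shared only that number: deviations correlated at −0.0756 to 0.0918 over 276 pairs of groups and at −0.0498 to 0.0876 over 66. With the replicate block 183 of 185 calls were kept, and Krt1 in K_FNV (adjusted p = 0.0512 in limma) and the Krt90 difference of BKM_FNV to BKM_Sox17 (adjusted p = 0.0542 in limma) were lost. Depth is unknown, so how far a value near 0 differs from 0 cannot be given.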
